A study of Mus musculus with 3 samples.

Results

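Divergent protein-coding promoter pairs are head-to-head genes, 1 on each strand, that are transcribed away from each other from starts that lie close together. Pairs were taken from the GENCODE mouse annotation (release M21, GRCm38 coordinates) on chromosomes 1 to 19 as a minus-strand and a plus-strand protein-coding gene whose starts, the outermost annotated 5′ ends, lay at most 1000 bp apart without overlap. This gave 735 pairs from 1450 distinct genes, or 6.97% of 20807 protein-coding gene starts. Because 20 genes entered at least 2 pairs, 40 pairs shared a gene with another. The distance between the starts, called the gap, had a median of 128 bp (quartiles 66 and 240, range 0 to 987), and 603 pairs (82.0%) had a gap of at most 300 bp. They were set beside 9841 single promoters, protein-coding starts with no other annotated gene start within 10000 bp.

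The chromatin data came from 1 DOGMA-seq preparation, a droplet assay in which open chromatin, polyadenylated RNA and antibody tags are read from the same cells. The cells were long-term haematopoietic stem cells (HSCs), sorted from the bone marrow of wild-type, 8-week-old mice (C57BL6/J per the methods of the study) after c-Kit enrichment as Lin- Sca-1+ c-Kit+ (LSK) cells that were CD48-, CD150+ and CD34-. There was 1 library of each kind and no second group. With 1 ATAC library there is no replicate, so no test is given, and every interval covers counting error or the spread over regions only. Fragments of 3108 called cells with over 3000 fragments in peaks were used, 36439576 in all on these chromosomes, with a median of 11457 fragments per cell (range 3977 to 194399). Of the HSC genes, Hlf, Kit and Meis1 were open at their annotated start, in 41.2%, 34.9% and 31.9% of cells, whereas Procr, Slamf1, Ly6a and Mecom had a fragment in 6.72%, 3.73%, 1.58% and 0.290%. Cd48 and Cd34, which the sort selected against, had a fragment in 1.74% and 6.89% of cells. No start of the 4 B cell, 4 T cell and 4 myeloid genes examined reached 10% of cells, nor did 3 of 4 erythroid genes (Epor, the exception, was at 12.9%). Of the megakaryocyte genes Itga2b (25.8%), Pf4 (22.4%) and Gp1ba (20.8%) did and Vwf (0.354%) did not. The part of these cells in the values below was not tested.

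Transcription from most mammalian promoters starts inside a stretch of DNA kept free of nucleosomes, and the first nucleosome downstream of a start sits at a set distance from it. In a divergent pair the 2 genes share this stretch or hold neighbouring ones, so the same DNA can serve as the upstream region of both. Divergent pairs are known to be rich in CpG islands, poor in TATA boxes and common among genes for DNA repair, mitochondria and other work that every cell does. In ATAC-seq the Tn5 transposase cuts accessible DNA, so that short fragments come from nucleosome-free DNA and longer ones can span a nucleosome.

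The DNA between the 2 starts is short enough to be read in full for most pairs. It is shown for 6 pairs with gaps of at most 300 bp, 3 known from textbooks and 3 among those with the most fragments. The counts of fragments and strings below come from wider windows that hold these stretches. The sequences are of the GRCm38 reference, plus strand, from the base after the minus-strand gene's start to the base before that of the plus-strand gene, and no annotated exon overlaps them. Capitals mark strings searched on both strands: CCAAT (the box bound by NF-Y), GGGCGG (the GC box bound by SP and KLF factors), CCGGAAG (bound by ETS factors) and GCATGCG (part of the NRF1 site), or their reverse complements. A string is a match of letters and not a mapped binding site.
Col4a4/Col4a3, chr1:82586850-82586920: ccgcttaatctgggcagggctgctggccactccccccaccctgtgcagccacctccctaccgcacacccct
Mrps12/Sars2, chr7:28741821-28741991: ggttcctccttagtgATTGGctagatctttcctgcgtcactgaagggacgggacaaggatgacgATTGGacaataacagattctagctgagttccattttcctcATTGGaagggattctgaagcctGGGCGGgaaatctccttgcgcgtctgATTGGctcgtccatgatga
Brca1/Nbr1, chr11:101551956-101552148: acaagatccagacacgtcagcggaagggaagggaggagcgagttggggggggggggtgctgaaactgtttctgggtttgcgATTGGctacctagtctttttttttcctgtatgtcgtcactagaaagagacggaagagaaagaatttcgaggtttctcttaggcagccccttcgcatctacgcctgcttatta
Mrps18b/Ppp1r10, chr17:35916390-35916433: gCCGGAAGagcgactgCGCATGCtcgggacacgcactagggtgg
Ddx5/Cep95, chr11:106789186-106789251: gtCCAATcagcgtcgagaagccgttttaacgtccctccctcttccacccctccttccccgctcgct
Nfya/Oard1, chr17:48409907-48410013: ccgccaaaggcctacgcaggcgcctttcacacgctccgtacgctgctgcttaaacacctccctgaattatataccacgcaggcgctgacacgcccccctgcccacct
The stretch of Mrps12/Sars2 held 4 CCAAT strings, all on the minus strand, and 1 GC box. Brca1/Nbr1 and Ddx5/Cep95 held 1 CCAAT string each, and Mrps18b/Ppp1r10 held an ETS string and the reverse complement of the NRF1 string within 44 bases. No searched string lay between the starts of Col4a4/Col4a3 or Nfya/Oard1.

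Openness was counted as the fragments centred within 1000 bp of the midpoint between the starts, or of the start of a single promoter. The windows of all pairs, merged where they overlapped, held 1299627 fragments, 3.57% of the total in 0.0581% of the bases. Pairs had a median of 1492 fragments (95% interval of the median 1403 to 1612, quartiles 876.5 and 2450.5), against 172 (156 to 188, quartiles 7 and 797) at single promoters and 330 (316 to 344) at all protein-coding starts. The median pair had a fragment in 34.0% of cells, against 4.86% for the median single promoter. A region was called open when at least 10% of cells had a fragment in it. The limit was taken from the detection of over 10% that the study required, among other criteria, of differential chromatin sites. By this limit 676 of 735 pairs (92%) were open, against 48% of all protein-coding starts and 39.1% of single promoters. In over 50% of cells a fragment was present at 174 pairs (23.7%) and at 541 single promoters (5.50%). A pair's window held 2 coding starts and that of a single promoter 1.

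Much of the difference moved with base composition. A 300 bp window around the midpoint, or around the start of a single promoter, was classed as CpG-rich by 2 limits (GC of at least 50% and an observed over expected CpG ratio of at least 0.6). It was CpG-rich in 596 pairs (81.1%), but in only 4209 single promoters (42.8%). At gaps over 300 bp this window lay between the starts of a pair and not on them. Among CpG-rich regions the medians were 1663.5 fragments for pairs (1544 to 1757) and 839 for single promoters (806 to 871), with 95.8% and 75.5% open. The pairs' median was thus 1.98 times that of single promoters (1.77 to 2.18), where the ratio over all regions was 8.67 (7.46 to 10.3). Among CpG-rich regions that were open, the medians were 1709 and 1162. The contrast was widest among regions without a CpG-rich window: 139 such pairs had a median of 974 fragments and 105 were open, whereas the 5632 such single promoters had a median of 12 and 666 were open (11.8%). These pairs include most of those with gaps of 500 to 1000 bp, whose starts lay outside the window. A coding gene head to head with a noncoding gene took an intermediate place in this comparison, which was chosen after the values of the pairs were seen: 757 such regions had a median of 1012 fragments (918 to 1089) and 563 (74.4%) were open.

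**Figure D1:**
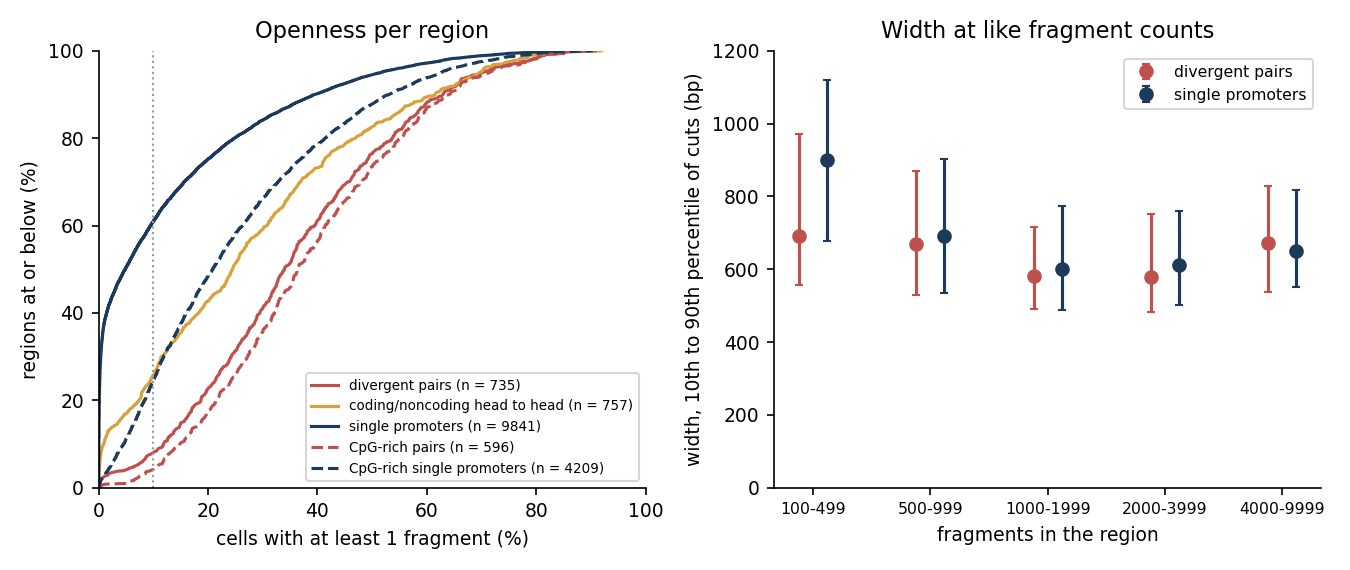
Left, share of regions (vertical axis, %) with a fragment in at most the percent of cells on the horizontal axis; the dotted line is the 10% limit, and dashed lines are CpG-rich regions. Right, median width of the open region (bp) by number of fragments, with bars from the lower to the upper quartile over regions. The curve of pairs lies to the right of that of single promoters, with 8.67 times the median fragments, while widths at 1000 to 2000 fragments were 581 and 600.9 bp.

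The pairs with the most fragments had genes of quite different jobs. Rnf5/Agpat1, a ubiquitin ligase of the endoplasmic reticulum and an enzyme of phospholipid synthesis, led with 8338 fragments in 91.0% of cells at a gap of 572 bp. Mrps18b/Ppp1r10, a mitochondrial ribosome protein and a nuclear subunit of protein phosphatase 1, had 7156 fragments in 86.1% of cells although its starts lay only 45 bp apart. Ddx5/Cep95, an RNA helicase and a centrosomal protein, had 6951 (85.2% of cells). Cep57/Fam76b had 6928 (84.2%) with a gap of 609 bp and no CpG-rich window. Nfya/Oard1, a subunit of the CCAAT-binding factor NF-Y and an enzyme that removes ADP-ribose from proteins, had 6921 (85.2%). These leading pairs spanned gaps from 45 to 609 bp. Dcaf6/Mpc2 (6844), Mob3a/Izumo4 (6293), Hdlbp/Sept2 (6205) and Rita1/Ddx54 (6161) completed the leading group, with Hdlbp/Sept2 counted once although the annotation holds 2 gene records named Sept2 there.

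Of the pairs known from textbooks, 4 of 5 were open. Brca1/Nbr1, a recombination repair gene beside an autophagy receptor, had 4649 fragments (Poisson interval 4516 to 4785) in 71.4% of cells. Atm/Npat, the DNA damage kinase and the coactivator of histone gene transcription, had 3597 (3480 to 3716) in 64.4%, and Mcm4/Prkdc, a subunit of the replicative helicase and the catalytic subunit of DNA-dependent protein kinase, had 3064 (2956 to 3174) in 57.7%. Mrps12/Sars2, which encode a mitochondrial ribosome protein and the mitochondrial seryl-tRNA synthetase, had 1928 (1843 to 2016) in 41.3%. The values of all 4 lay above the median of pairs. Col4a4/Col4a3, which encode basement membrane collagen chains, had 18 fragments (10.7 to 28.4) in 16 cells, 0.515% of cells. Its 2 starts lie 72 bp apart, and with a CpG ratio of 0.524 its window was outside CpG-rich DNA.

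Openness differed with the gap, given here in 5 classes that each include their upper limit and not, above 0, their lower one. The median was 1222 fragments (1126 to 1383) at gaps of 0 to 100 bp (307 pairs), 1742.5 (1544 to 1929) at 100 to 200 bp (200 pairs), 1916.5 (1474 to 2233) at 200 to 300 bp (96 pairs) and 2261.5 (1597 to 3010) at 300 to 500 bp (64 pairs), then 1343 (1032 to 1982) at 500 to 1000 bp (68 pairs). The interval of the closest class did not overlap those of the next 3, which overlapped each other. Across 646 pairs with gaps up to 500 bp and at least 100 fragments, the rank correlation of gap and fragments was 0.320, as a description over regions of 1 library. Over the same classes the share of CpG-rich windows fell from 92.2% to 86.5%, 80.2%, 70.3% and 26.5%. In the classes above 300 bp the window, set on the midpoint, lay between the starts, so these shares do not describe the DNA at the starts. The 10 pairs just inside the limit of the rule (gaps of over 900 to 1000 bp) had a median of 1109.5 fragments, and 11 pairs just outside it (over 1000 to 1100 bp) had a median of 904, with 9 open in each.

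The width of the open region was the span from the 10th to the 90th percentile of the cut sites, in regions with at least 100 fragments (709 pairs and 5428 single promoters). The median width of pairs was 613 bp (594 to 632, quartiles 498.2 and 784) against 719.5 bp (708 to 730), and 593.4 against 684 bp in CpG-rich DNA. Width moved with fragment count, with a rank correlation of -0.40 at single promoters and -0.12 at pairs, and at like counts the medians drew close: 668.3 and 691.8 bp at 500 to 1000 fragments, 581 and 600.9 bp at 1000 to 2000, and 580 and 612.5 bp at 2000 to 4000. Above 4000 fragments the order turned, with 672 bp in 50 pairs and 650.8 bp in 149 single promoters. Where at least 500 fragments were required, the difference shrank from -106.5 bp to -23 bp (-54.2 to 3). In the lowest class, 100 to 500 fragments, 60 pairs measured 690.4 bp and 2118 single promoters 899.25 bp.

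Over all 709 pairs the rank correlation of gap and width was 0.133, and up to a gap of 500 bp the width changed little with the gap. Median widths were 604.8, 589.2, 610.0 and 618.3 bp for the classes from 0 to 100 up to 300 to 500 bp, and the rank correlation of gap and width in these 646 pairs was -0.0048. The class of 500 to 1000 bp measured 908.1 bp (803 to 1070). The width at 50% of maximum coverage rose from class to class, at 419, 426, 450, 467 and 500 bp, with a rank correlation of 0.121 over all 709 pairs and 0.0866 up to 500 bp. Among the widest pairs with at least 500 fragments were Atp6v1a/Naa50 (1548.5 bp), Grik5/Zfp574 (1411.4 bp), Slc30a7/Extl2 (1393 bp) and Fhod1/Slc9a5 (1369.7 bp), of which the first, a proton pump subunit beside an acetyltransferase, had a gap of 125 bp. The narrowest were Ndufa5/Asb15 (212 bp), Iqch/Aagab (266 bp), Pecr/Tmem169 (266.2 bp), Pinlyp/Xrcc1 (267.9 bp) and Nadsyn1/Dhcr7 (277 bp). In Pinlyp/Xrcc1 the narrow region was not at the starts: its summit lay 832 bp from the midpoint, and 188 cut sites fell within 500 bp downstream of either start. In Ndufa5/Asb15 too the summit lay away from the starts, 444 bp from the midpoint and 378.5 bp beyond the Ndufa5 start. In Iqch/Aagab, Pecr/Tmem169 and Nadsyn1/Dhcr7 it lay between the starts. Over all 709 pairs the summit lay more than 500 bp beyond a start in 16 (2.26%), among them Rbks/Babam2 (873 bp from the midpoint) and Brca1/Nbr1 (620 bp). All 5 narrow pairs had at least 72.5% of fragments under 150 bp, above the upper quartile of pairs (64.0%).

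Centres of nucleosome-length fragments, 150 to 300 bp, showed how the flanks of a pair were placed. At gaps of 0 to 100 bp (298 pairs, median gap 56 bp) these centres peaked at -153 and +152 bp from the midpoint, 305 bp apart, and the level at the midpoint was 36.8% of the lower peak. At 100 to 200 bp the peaks lay at -189 and +188 bp, 377 bp apart, with 66.1% at the midpoint. In wider gaps the outer peaks lay 475 bp (200 to 300 bp) and 601 bp (300 to 500 bp) apart, and in both classes the highest point of the profile was now a middle peak within 15 bp of the midpoint. At 500 to 1000 bp the outer peaks were 838 bp apart. Measured from the gene starts, the first downstream peak was at nearly the same place in every class, at 125, 112, 115, 117 and 128 bp from the closest to the widest, and at 120 bp over the 1418 starts of pairs. It was at 117 bp downstream of the 5428 single promoters. In these profiles set on the starts the place varied by 16 bp over the 5 classes. The outer peaks of the profiles set on the midpoint moved apart with the starts too, though in the widest class their distance of 838 bp set against a median gap of 664 bp left less room beyond the starts than in the others.

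**Figure D2:**
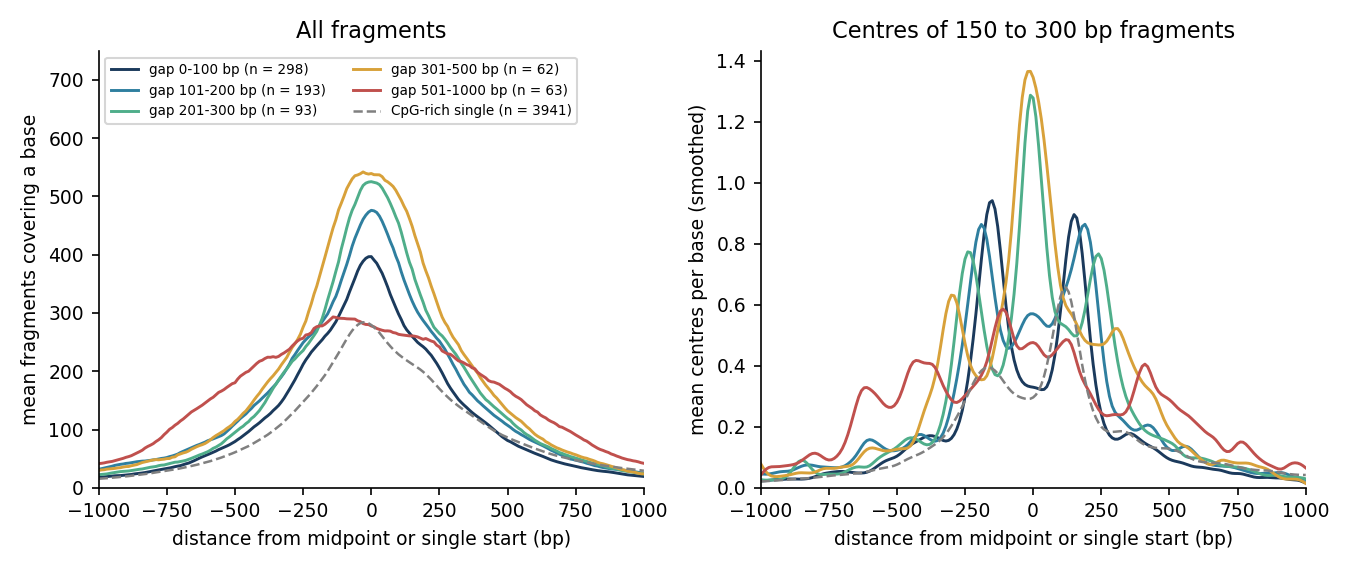
Mean number of fragments covering each base (left) and of centres of 150 to 300 bp fragments per base (right, smoothed with an SD of 20 bp) against distance in bp from the midpoint of a pair or from the start of a CpG-rich single promoter (dashed, transcribed to the right). Lines are means over regions with at least 100 fragments, not scaled to each region's total. The right panel shows 2 flanking peaks that part as the gap grows, with a middle peak at gaps of 200 to 500 bp.

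**Figure D3:**
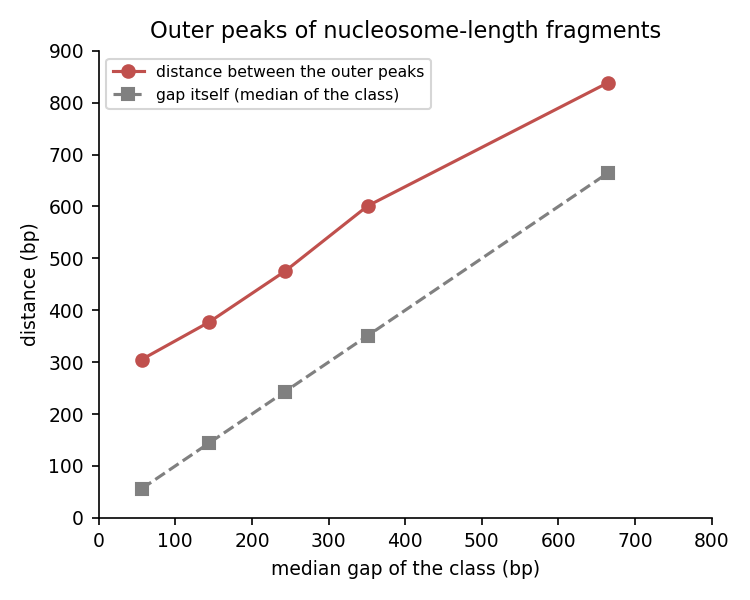
Distance in bp between the outer peaks of nucleosome-length fragments (circles) and the median gap itself (squares) for the 5 gap classes, against the median gap. The outer distance grew from 305 to 838 bp.

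Upstream of a start, pairs had more signal than single promoters. Within 500 bp of a start, 60.4% of coverage lay upstream at the starts of pairs against 47.0% at single promoters and 48.1% at CpG-rich ones. The upstream side of a start in a pair is the side that holds the other gene. By gap class this share was 54.1%, 59.8%, 66.5%, 71.5% and 65.5%. At single promoters of CpG-rich DNA the nucleosome-length peaks were unlike in height, at 0.395 centres per base upstream (at -165 bp) and 0.658 downstream (at +118 bp), whereas pairs with gaps up to 100 bp had 0.943 and 0.897.

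The summit of a pair lay between the 2 starts in 120 of 298 pairs (40.3%) at gaps of 0 to 100 bp, in 63.7% at 100 to 200 bp, in 88.2% at 200 to 300 bp and in 57 of 62 (91.9%) at 300 to 500 bp, but in 38 of 63 (60.3%) at 500 to 1000 bp. A wider gap holds a summit more often by construction, and the summits of the mean coverage of these classes lay at -7, 4, -8, -31 and -139 bp from the midpoint.

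Fragments under 150 bp made up 57.6% of the fragments of the median pair (56.4 to 58.3) and 50.6% (50.1 to 51.1) of those of the median single promoter. Pooled over all regions the shares were 59.8% and 57.6%, with 25.6% and 26.1% at 150 to 300 bp and 14.6% and 16.2% above 300 bp. This share too moved with fragment count, with rank correlations of 0.514 over pairs and 0.693 over single promoters. At 1000 to 2000 fragments it was 57.3% in pairs and 57.4% in single promoters, and at 2000 to 4000 it was 62.2% and 62.8%. With over 4000 fragments, pairs had the lower share, 64.6% (50 pairs) against 68.1% (149 single promoters). At 100 to 500 fragments the shares were 46.7% and 39.6%. At 500 to 1000 fragments they were 50.5% and 50.3%, so from 500 to 4000 fragments the medians of the 2 groups differed by less than 1 percentage point.

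Among pairs with at least 500 fragments the short share was highest in Ccdc151/Prkcsh (78.3%), Peg3/Usp29 (77.7%), Npc2/Isca2 (77.6%), Rnft2/2410131K14Rik (76.6%) and BC005624/Usp20 (76.4%). Peg3/Usp29 is an imprinted pair, expressed from the paternal chromosome, and had 743 fragments in 19.9% of cells. Its coverage was highest at -900 bp, on the Peg3 side, and only 151 cut sites lay within 500 bp downstream of either start, 124 of them beside Peg3. The share was lowest in Taf6/Cnpy4 (27.0%), Zwilch/Rpl4 (28.1%), Iqcg/Rpl35a (29.4%), Cd3eap/Ppp1r13l (29.9%) and Zfp942/Zfp943 (30.3%). Taf6 encodes a subunit of the general factor TFIID, and Rpl4 and Rpl35a encode proteins of the large ribosomal subunit.

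Fragments that covered both starts, here called bridging, leave the DNA between them uncut. Their median share was 12.1% (quartiles 7.61 and 17.9) at gaps of 0 to 100 bp, 2.43% at 100 to 200 bp, 0.776% at 200 to 300 bp, 0.367% at 300 to 500 bp and 0 at 500 to 1000 bp, and the rank correlation with the gap was -0.905 over 709 pairs. A longer gap can be covered only by a longer fragment, so the fall with the gap is partly fixed by the measure. Rps28/Ndufa7, a small ribosomal subunit gene and a respiratory complex I gene with starts 10 bp apart, had 39.1%. Some pairs departed from others of like gap. Among those with gaps over 200 bp, picked after their values were seen, Iqcg/Rpl35a had 135 bridging fragments of 1319 (10.2%), Zdhhc6/Vti1a had 9.85%, Crat/Ptpa 8.63% and Atg13/Harbi1 8.32%. Their short shares were 29.4% to 46.7%, and at these gaps a bridging fragment cannot be short.

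**Figure D4:**
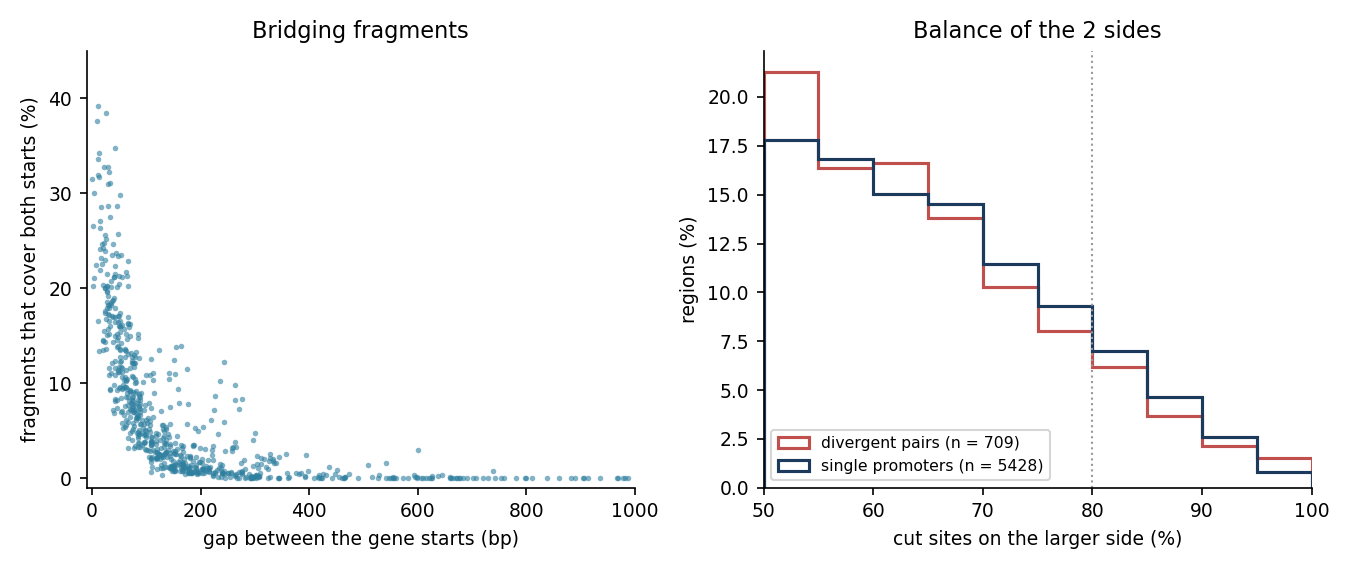
Left, share of fragments that cover both starts (%) against the gap (bp), 1 point for each of 709 pairs; the share falls from a median of 12.1% at gaps up to 100 bp to 0 beyond 500 bp. Right, share of regions (%) by the percent of cut sites on the larger side, with the 80% line dotted; 96 pairs and 816 single promoters lie beyond it.

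The balance of the 2 sides was near that of single promoters. Cut sites were counted in the 500 bp downstream of each start, and the larger side held a median of 63.6% (quartiles 56.3 and 73.2). At single promoters, with downstream set against upstream, it was 65.1%, and at CpG-rich ones 63.7%. The larger side exceeded 80% in 96 of 709 pairs (13.5%), against 15% of single promoters with at least 100 fragments and 10.9% (429 of 3941) of CpG-rich ones, so the share of pairs lay between these backgrounds. It stayed below 60% in 267 pairs (37.7%), against 1878 single promoters (34.6%) and 1485 CpG-rich ones (37.7%). In the widest class, 500 to 1000 bp, the larger side held 78.2% in the median pair and 25 of 63 pairs exceeded 80%.

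In the most one-sided pairs nearly all of these counted sites lay beside 1 of the 2 genes, while others in the window lay outside both sides and were not counted. Haghl/Ccdc78 had 99.2% of counted sites on the Haghl side (gap 907 bp) and Abhd12/Gins1 99.2% on the Abhd12 side (659 bp). In Ndufa5/Asb15 the side of Ndufa5, a respiratory complex I subunit, held 98.8%, and that of Asb15, named for its SOCS box, the rest. Rad51c/Tex14 had 98.5% on the side of the recombination gene Rad51c and the rest on that of Tex14, a gene of testis, with starts only 111 bp apart. Ankrd17/Gm9958 also had 98.5% on 1 side, that of Ankrd17. In these pairs the coverage summit lay inside the gene of the larger side and not between the starts. It was 429.5 bp beyond the start of Rad51c, 378.5 bp beyond that of Ndufa5 and 225.5 bp beyond that of Ankrd17. For Haghl and Abhd12 it was 100.5 and 13.5 bp beyond. Some of the most open pairs leaned strongly as well: the Ddx54 side of Rita1/Ddx54 held 88.4%, the Ppp1r10 side of Mrps18b/Ppp1r10 83.5% and the Ddx5 side of Ddx5/Cep95 79.3%.

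Windows of pairs, centred on the midpoint, differed from windows of single promoters, centred on the start, in the strings they held. The 2 kinds of window are placed unlike: at gaps over 300 bp that of a pair lay between its starts. The part of this placement in the shares was not tested. In 300 bp windows, both strands searched, the ETS string CCGGAAG was found in 28.3% of pairs (208 of 735), in 15.9% of CpG-rich single promoters, in 8.93% of single promoters and in 11.7% of all protein-coding starts. CCAAT was in 44.2% of pairs and 31.7% of CpG-rich single promoters (36.2% of all starts), and ACTACAA, a part of the ZNF143 site, in 5.85% and 3.11% (3.31%). The GC box ran the other way, in 67.9% of pairs and 78.9% of CpG-rich single promoters (46.3%), and the median GC content was 62.3% in pairs and 68.0% in CpG-rich single promoters. The TATA string TATAAA was in 4.49% of pairs against 11.9% of single promoters and 3.49% of CpG-rich ones (10.7% of all starts). For factors of blood cells, the GATA string AGATAAG was in 1.36% of pairs, 2.08% of all starts and 0.665% of CpG-rich single promoters, and the RUNX string TGTGGT in 8.71%, 14.8% and 8.05%, so that pairs lay below all starts but above CpG-rich single promoters. NRF1 (GCATGCG, 7.89%), YY1 (ATGGCGG, 12.8%), CREB/ATF (TGACGTC, 7.35%) and E-box (CACGTG, 10.9%) strings were near the shares of CpG-rich single promoters, 6.70%, 11.2%, 6.51% and 10.4%.

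Pairs with a given string were not all more open. The 58 pairs with the NRF1 string had a median of 2235.5 fragments against 1441 for those without, and the 325 with CCAAT had 1746 against 1365.5. The 208 pairs with the ETS string had 1412.5 against 1552, and the 43 with the ZNF143 string 1122 against 1521.5. Gaps and base composition differ between these sets, and their part in the medians was not tested.

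**Figure D5:**
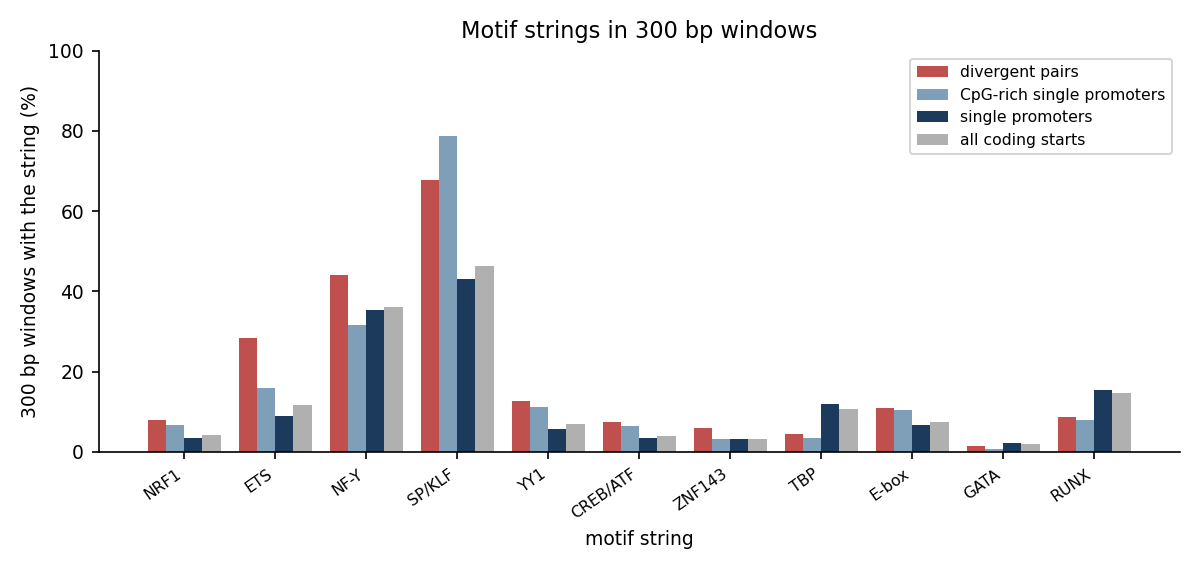
Share of 300 bp windows (%) that hold each searched string on either strand in divergent pairs, CpG-rich single promoters, all single promoters and all protein-coding starts. Windows are centred on the midpoint of a pair and on the start elsewhere. The ETS bar reaches 28.3% in pairs and 15.9% in CpG-rich single promoters.

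The genes of pairs came from all 19 chromosomes, from 10 pairs on chromosome 18 to 68 on chromosome 11, and from some functions more than others. Of replication-dependent histone genes 27 of 67 (40.3%) lay in a pair, of DNA repair genes 33 of 114 (28.9%), of RNA polymerase and general transcription factor genes 24 of 99 (24.2%), of nuclear respiratory chain genes 22 of 93 (23.7%) and of mitochondrial ribosome genes 18 of 78 (23.1%), beside 6.97% of all protein-coding genes. Chaperones (18 of 95), DNA replication (9 of 49), splicing (12 of 66), the proteasome (7 of 49), tRNA synthetases (5 of 35) and cytosolic ribosomal proteins (8 of 76) had shares from 18.9% down to 10.5%. Zfp zinc finger genes were at 5.19% (20 of 385) and a list of name families meant to hold genes of restricted tissues, such as collagens, keratins and olfactory receptors, at 1.36% (31 of 2284). No gene of 85 regulators of blood cell formation lay in a pair. Of these 85, 33 were single promoters, with a median of 1530 fragments and 25 open, beside a median of 172 fragments and 39.1% open over all single promoters.

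Most pairs of every list were open, as were 92% of all pairs. All 24 pairs with a polymerase or general factor gene (median 1582 fragments), all 22 respiratory chain pairs (1612.5), all 17 chaperone pairs (2400), all 12 splicing pairs (1893.5), all 10 replication pairs (1803.5), all 7 proteasome pairs and all 5 tRNA synthetase pairs passed the limit, as did 33 of 35 DNA repair pairs (1592), 16 of 18 mitochondrial ribosome pairs (1905.5), 16 of 18 Zfp pairs (1387.5) and 7 of 8 cytosolic ribosome pairs (1460). Of the 30 pairs with a gene of the restricted families 24 were open, with a median of 1410. Its leading pairs were Ccdc47/Ddx42 (4643 fragments) and Ccdc151/Prkcsh (3598), since the list took in all genes of the Ccdc name, which holds broadly used genes too. Tecr/Dnajb1, with the heat shock cochaperone Dnajb1, had 5467 fragments in 77.2% of cells. Uqcrq/Gdf9, a subunit of respiratory complex III beside an oocyte growth factor, had 5512 in 77.6% with 75.4% of cut sites on the Gdf9 side. Zfp91/Lpxn (4524), Rbks/Babam2 (4213), Lnx2/Polr1d (3206) and Psme2/Rnf31 (3202), the last a proteasome activator beside a subunit of the linear ubiquitin ligase, led or stood second in theirs. Genes of these lists that were single promoters had lower medians, for example 872 fragments for the respiratory chain (19 genes) and 793 for DNA repair (30 genes), but 1696 for 14 cytosolic ribosomal genes against 1460 in pairs.

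Histone pairs had a lower median than pairs as a whole. Core histone genes lie in clusters of H2A and H2B genes read in opposite directions, and 11 of their 14 pairs were open with a median of 904.5 fragments (range 0 to 1982). Hist1h2bh/Hist1h3f had 1982 fragments and Hist1h2ac/Hist1h2bc 1967, in 43.8% and 43.5% of cells. Hist1h2ba/Hist1h2aa, the testis-type copies, had 3. Hist1h2bq/Hist1h2ao and Hist1h2ap/Hist1h2br had 0, which allows a share of up to 0.0965% of cells with a fragment, taking 3 counts as the limit that a count of 0 allows. These last genes have near-identical copies in the same cluster, and reads that match several places alike can be lost in mapping, so their values are uncertain. Without these 2 pairs, 11 of 12 (91.7%) were open with a median of 969.5.

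Of the 735 pairs, 59 were not open, 34 of them without a CpG-rich window. Gml/Gml2 (3 fragments) and Gm20075/Gm17190 (2) were lowest beside the histone copies. For 10 of the 59 a start of a principal transcript, the main isoform in the annotation, was open within the same gene, and for 9 of these it lay over 200 bp from the outermost start; the cases given here were chosen after their values were seen. Rnf151/Rps2 had 80 fragments in 2.22% of cells at its midpoint, whereas the principal start of Rps2, a small ribosomal subunit gene, 1947 bp away, had 4012 in 67.7%. Slc27a5/Trim28 had 6 fragments, and the principal start of Trim28, a corepressor, 25038 bp away had 2002 in 40.5% of cells. For the other 49 pairs neither principal start was open. Among them were Col4a4/Col4a3 and pairs of restricted genes such as Smyd1/Cd8b1 (11 fragments), of muscle and of cytotoxic T cells.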

How the data were processed

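The study sorted long-term HSCs from bone marrow of 8-week-old wild-type mice and made ATAC, RNA and antibody-tag libraries by DOGMA-seq (10x multiome). Per the file header, the authors processed reads with Cell Ranger ARC 2.0.2 and its mm10 reference; the fragment file they deposited lists unique fragments, with counts of read pairs, after duplicates were collapsed, and the deposited barcode table gives counts of fragments per barcode and the cell call. The antibody counts were not used here, and an RNA matrix was not analysed here. The sources used here do not state how many mice were pooled.

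Of 3757 called barcodes, 3108 with over 3000 peak fragments were kept; doublets were not removed. Fragments were placed by their centre and cut sites by both ends. GENCODE M21 gave gene starts; highest fragment ends lay within GRCm38 chromosome lengths. Coverage was smoothed with an SD of 20 bp. Motif strings were searched 150 bp either side of the midpoint of a pair, or of the start elsewhere. With 1 library no test was run. Intervals are 95%: order statistics for medians, exact Poisson for counts and exact binomial for shares. Ranges given for ratios and differences of medians join the opposite limits of the intervals of the 2 medians, so they are not 95% intervals. PCR was collapsed by position, not by molecular identifiers, so the intervals of counts and shares cover counting error only. Those of medians cover the spread over regions. Measures were tested on simulated regions. Python 3.11.15, numpy 2.4.6, scipy 1.17.1, pandas 2.3.3 and matplotlib 3.10.9 were used.

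Named pairs are the textbook pairs found, the 10 with the most and 5 with the fewest fragments, the 5 extremes of width, one-sidedness and short share among pairs with at least 500 fragments, and the 2 leading pairs of each gene list. Members, lists and named rules were chosen with earlier results of these data known. A few items that these rules select are not reported here. Alternatives covered cells, read support, window, centre, choice of starts and limits.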

Additional observations from a re-analysis of the deposited data

How the results depend on the processing

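With 1 library, biological spread between mice and preparations is unknown, and gene starts are annotated rather than mapped in these cells. Values moved when they left the interval of the median or share, or the range of the ratio or difference. The ratio of median fragments of pairs to single promoters (8.67) rose to 12.6 within 500 bp, and was 6.62 when noncoding starts were allowed near single promoters, 1.98 in CpG-rich regions and 1.47 in open CpG-rich regions, the last an alternative added after seeing the data. The share of open pairs (92.0%) was 89.7% within 500 bp, 95.8% in CpG-rich regions, 95.9% at a limit of 5% of cells and 77.4% at 20%, with 30 and 166 pairs under those limits in place of 59; it is 100% by construction among open CpG-rich pairs. The width of pairs minus that of single promoters (-106.5 bp) was -23.5 bp within 500 bp, -42 bp at 50% of maximum coverage, -198.6 bp with no minimum, -23 bp with at least 500 fragments, -75.5 bp after flank subtraction and -52.2 bp in open CpG-rich regions. The difference in short share (7.06 percentage points) was 4.85 with overlapping 5′ ends added, 5.20 in CpG-rich regions, 3.12 in open regions, 2.83 in open CpG-rich regions and 4.30 with under 100 bp as short. The ETS string was in 22.3% of 200 bp windows. The cause of these moves was not tested. No value changed direction under the alternatives run, and the values recomputed for all called cells, at least 2 read pairs per fragment, principal starts and pairs with no other gene start nearby stayed within their intervals, as did the ratio and the share of open pairs with 1 pair per gene and, within 20 bp, the nucleosome-length peaks under other smoothing. No paired analysis was possible because there is 1 ATAC library.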
